A study of Homo sapiens with 9 samples.

Results

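The DNA damage response and repair genes described here are 34 of the 19974 protein-coding genes of chromosomes 1 to 22 and X. They were chosen by name for their roles in sensing, signalling and repairing DNA lesions, with no threshold on any measured value. For each gene the measure was the length lying under peaks of DNA:RNA hybrid signal within its RefSeq GRCh38 span plus 1 kb on either side. All 34 had enough covered length to be tested.

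An R-loop forms when RNA pairs with its template strand and leaves the opposite DNA strand single. Such hybrids form on transcribed genes, often near starts and ends, and unresolved ones are a known source of replication stress and DNA breaks. Breaks are recognised by the MRE11-RAD50-NBN complex, which activates the kinase ATM, while RPA-coated single strands activate ATR through ATRIP and TOPBP1. Repair then runs by end joining, recombination, base excision or nucleotide excision, and the nucleotide excision nucleases XPF and XPG (the products of ERCC4 and ERCC5) are also known to cut R-loops. TDP-43, encoded by TARDBP, binds RNA and DNA and is lost from neuronal nuclei in motor neuron disease.

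The cells were SH-SY5Y, an established human neuroblastoma line of adrenergic character. The shTDP43 cells carried a stably integrated lentiviral short hairpin against TDP-43, and the shNC cells carried a control hairpin in the same vector. The protocol gives puromycin at 2 µg/mL for 2 weeks and then 1 µg/mL for the knockdown cells, and names no other regime for the control cells. In DRIP-seq, nucleic acids were digested with 5 restriction enzymes (BsrGI, EcoRI, HindIII, SspI and XbaI) and 6 µg was precipitated with S9.6, an antibody to DNA:RNA hybrids. The groups were 1 shTDP43 and 1 shNC library treated for 6 h with RNase H, which degrades the RNA of a hybrid, and 3 shTDP43 and 3 shNC libraries without that enzyme. The labels describe a separate cell harvest for each replicate but do not say whether replicates came from separately transduced lines, so p-values measure only the spread between these libraries. Peaks give no RNA level, and the depth of the knockdown was not checked here.

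The untreated shTDP43 libraries held 57204, 69642 and 70016 peaks, and the untreated shNC libraries 73353, 69453 and 70819. shTDP43 replicate 1 stood apart, with 91.6 Mb under peaks against 125 to 142 Mb in the other 5 untreated libraries. The summed length over the 34 repair genes followed it, at 250.7, 368.2 and 389.6 kb in shTDP43 and 405.6, 349.6 and 352.6 kb in shNC. Covered lengths were therefore scaled to the median library total before testing. On that scale a gene covered over exactly the same length in all 6 libraries has a log2 change of 0.20, because the totals of the shTDP43 libraries were smaller. A background pileup (reads over a base) was solved from fold enrichment and p at 2000 summits per library. Its lowest value was 1.05 in shTDP43 replicate 1 and 1.62 to 2.01 in the other 5 untreated libraries. The part of read depth in the smaller totals was not tested. Among loci that mark adrenergic neuroblastoma cells, 9 of 10 carried a peak in all 6 untreated libraries and TH was at 0. Among 12 loci that mark other cell types, 1 did and 8 were at 0. The summed length of the adrenergic loci, before scaling, was 119 to 130 kb in shTDP43 and 120 to 127 kb in shNC. That of the other loci was 3.67 to 5.53 kb in shTDP43 and 5.68 to 7.44 kb in shNC, and the part of this difference in the results was not tested.

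Promoter sequences were matched for 29 of the 34 genes, with 39 listed starts in all, and RPA2, XRCC5, POLB, PRKDC and NBN had no entry. The 5 promoters below are printed because they span what was seen at gene starts. The first 2 carried no peak in any of the 8 libraries, and the third had a peak in 1 of 6 untreated libraries despite the highest G over C excess of the 39. The last 2 carried a peak in all 6 untreated libraries. Each runs 5′ to 3′ on the gene's strand from 250 bases before to 50 bases after a RefSeq start of GRCh38.p14, with every run of GGG or longer in capitals. They are ATR at chr3:142578684-142578983 (minus strand), ERCC2 at chr19:45370524-45370823 (minus strand), an inner start of LIG4 at chr13:108215256-108215555 (minus strand), RAD52 at chr12:989992-990291 (minus strand) and XRCC6 at chr22:41621045-41621344 (plus strand).
ATR: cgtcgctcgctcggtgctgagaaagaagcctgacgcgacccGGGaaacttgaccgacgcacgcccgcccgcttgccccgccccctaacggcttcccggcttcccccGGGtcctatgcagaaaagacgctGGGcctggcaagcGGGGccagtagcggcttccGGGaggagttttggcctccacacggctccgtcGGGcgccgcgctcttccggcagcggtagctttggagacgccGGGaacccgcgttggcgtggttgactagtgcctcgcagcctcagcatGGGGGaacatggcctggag
ERCC2: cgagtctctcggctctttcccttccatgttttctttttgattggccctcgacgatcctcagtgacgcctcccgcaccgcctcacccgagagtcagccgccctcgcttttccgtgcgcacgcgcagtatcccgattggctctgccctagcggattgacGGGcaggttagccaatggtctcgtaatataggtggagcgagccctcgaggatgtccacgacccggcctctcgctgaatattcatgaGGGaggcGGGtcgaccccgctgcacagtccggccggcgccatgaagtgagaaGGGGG
LIG4: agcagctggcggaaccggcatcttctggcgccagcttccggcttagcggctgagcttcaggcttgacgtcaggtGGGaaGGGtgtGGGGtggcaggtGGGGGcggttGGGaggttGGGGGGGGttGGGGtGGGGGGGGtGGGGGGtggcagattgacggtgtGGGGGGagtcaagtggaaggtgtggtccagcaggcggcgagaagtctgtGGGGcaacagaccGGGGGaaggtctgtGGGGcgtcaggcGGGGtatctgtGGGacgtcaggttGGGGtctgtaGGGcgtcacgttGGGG
RAD52: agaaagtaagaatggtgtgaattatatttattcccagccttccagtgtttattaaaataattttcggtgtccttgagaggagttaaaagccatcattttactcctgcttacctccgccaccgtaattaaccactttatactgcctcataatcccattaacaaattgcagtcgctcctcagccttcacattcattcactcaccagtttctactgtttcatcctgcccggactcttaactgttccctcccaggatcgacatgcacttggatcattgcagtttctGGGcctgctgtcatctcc
XRCC6: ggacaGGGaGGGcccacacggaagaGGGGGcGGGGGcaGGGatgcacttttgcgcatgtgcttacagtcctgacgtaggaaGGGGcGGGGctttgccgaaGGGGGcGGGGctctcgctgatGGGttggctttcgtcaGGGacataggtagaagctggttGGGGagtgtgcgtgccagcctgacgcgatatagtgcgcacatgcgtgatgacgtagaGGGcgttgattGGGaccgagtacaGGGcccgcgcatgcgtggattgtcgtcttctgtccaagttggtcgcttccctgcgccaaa

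A G-rich strand beside the start, measured as skew (G minus C over G plus C), is a known feature of R-loop-forming promoters. Over the members' 39 promoters the median skew was 0.03 where all 6 untreated libraries had a peak, 0.01 where 1 to 5 did and -0.03 where none did (2 promoters). Over all 22132 promoters of protein-coding genes it was 0.02 in each of these classes, so skew did not separate them. Other traits did differ over all promoters. Median G and C was 67.3% where all 6 libraries had a peak and 54.3% where none did. At least 5 GGG runs were present in 82.2% and 57.4% of these. Among the members' promoters the same medians were 62.7% and 65%, and the same shares 76.5% and 50%, with 2 promoters in the class without a peak. The LIG4 sequence held 18 GGG runs and a skew of 0.52 and was touched by 32 bp of a peak in shNC replicate 3 alone. The XRCC6 sequence held 15 runs and a skew of 0.29 and was covered over all 300 bases in all 6 untreated libraries. The RAD52 sequence, with 1 GGG run, 43% G and C and a skew of -0.29, was covered over all 300 bases in the same 6 libraries. Another listed RAD52 start, at 949694, had 61% G and C and a peak in 5 of the 6. The region over the printed start runs past the 5′ end of the span, so that peak cannot be assigned to RAD52 alone. The RAD52 window also overlaps WNK1 and ERC1, and 96.5% of its bases lie in no other coding gene. The ATR and ERCC2 promoters had 68.3% and 61.7% G and C, and the median over the members' promoters was 64.3%. Among the 39, 17 (43.6%) had a peak in all 6 untreated libraries and 2 (5.13%) had none, whereas 37.8% and 43.1% of 22132 promoters of all protein-coding genes did. These shares are of unlike sets, because every member had enough coverage to be tested and many other genes did not. The 17 promoters belong to 13 genes, since some genes have several listed starts close together. At least 5 GGG runs on the gene's strand were present in 79.5% of the members' promoters and in 70.7% of all promoters. A site of any of the 5 enzymes (BsrGI cuts within TGTACA, EcoRI within GAATTC, HindIII within AAGCTT, SspI within AATATT and XbaI within TCTAGA, each the same on both strands) was present in 17.9% of the members' promoters and 18.4% of all, and the ERCC2 sequence holds an AATATT.

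Repair genes differed widely in how much of their length lay under hybrid peaks. Their covered share, averaged over the 6 untreated libraries, had a median of 18.4%, against 22.3% over all 12810 genes tested and 5.61% over all protein-coding genes. Their spans were longer, with a median of 45.1 kb against 29.2 kb over the genes tested. Of the 34 genes, 7 lay over 50% covered (H2AX, APEX1, ERCC2, MDC1, PARP1, LIG3 and LIG1) and 6 under 5% (XRCC4, MRE11, NHEJ1, ATM, PALB2 and ATR). A peak was present in all 6 untreated libraries in 32 of 34 genes (94.1%, against 59.9% of all protein-coding genes). The exceptions, MRE11 and PALB2, had no peak in shTDP43 replicate 1. These shares are of unlike sets. All 34 genes had enough coverage to be tested, as did 12810 of the 19974 protein-coding genes, whose median span was 24.2 kb over the full set. The share among the genes tested was not counted. In 23 of the 34 genes the window also overlaps another coding gene, and peaks cannot be assigned to a strand.

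**Figure D1:**
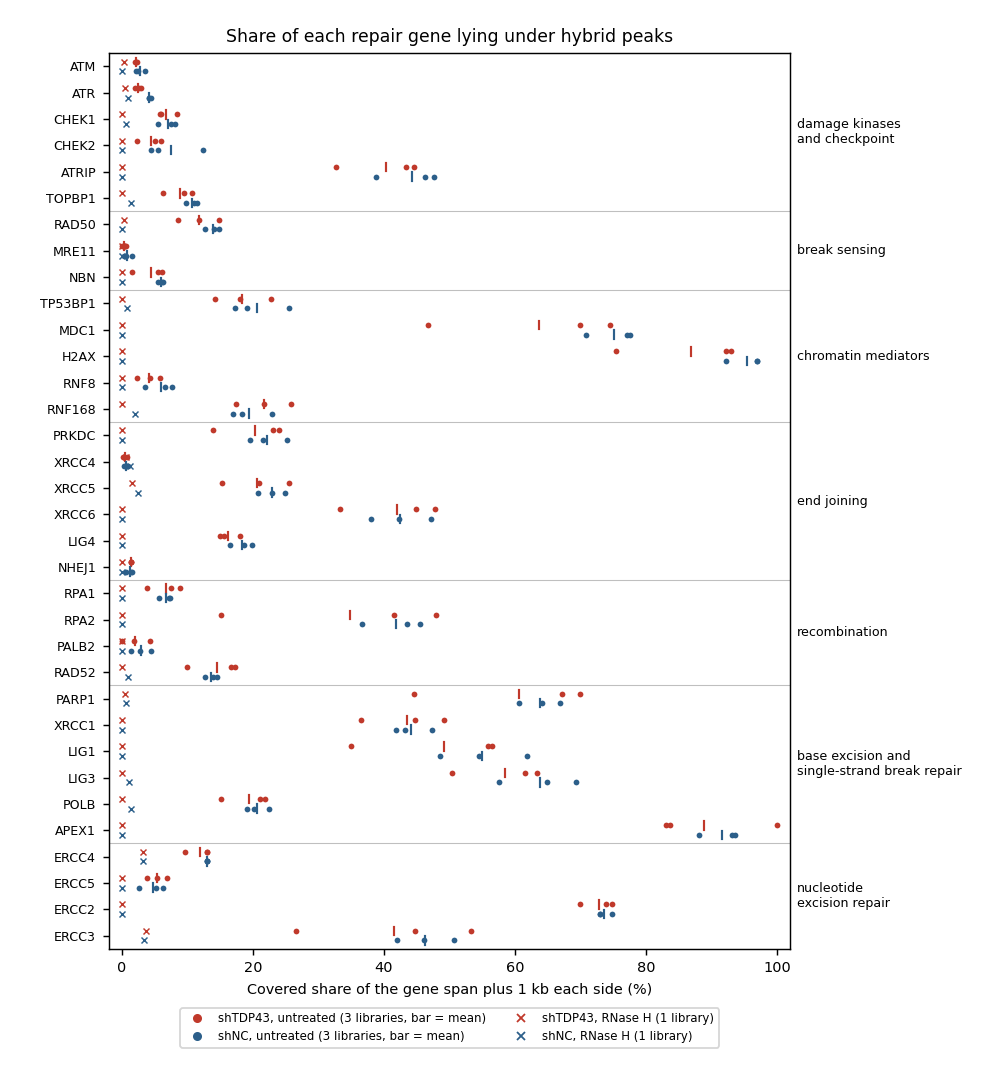
Covered share (%) of each repair gene's span plus 1 kb either side, with each untreated library as a dot, its group mean as a bar and the single RNase H library of each genotype as a cross. H2AX, APEX1 and ERCC2 lie furthest right, at 91.1%, 90.3% and 73.3% over the 6 untreated libraries, and every cross lies near 0.

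No repair gene changed its covered length in shTDP43 cells at a Benjamini-Hochberg adjusted p under 0.05 (limma, 3 libraries against 3). Over all genes tested 0.921% passed, 0.172% higher and 0.749% lower in shTDP43. Adjusted p-values of the 34 genes ran from 0.185 to 0.984, and 2 genes (ATR and RNF168) had an unadjusted p under 0.05, as did 11.5% of all genes tested. The log2 change, shTDP43 minus shNC, was positive in 21 genes and negative in 13, with a median of 0.03 against 0.05 over all genes tested. Without scaling the split turned to 4 positive and 30 negative, with a median of -0.17 against -0.15 over all genes tested. In 22 of the 34 genes the 95% interval lay within 1.5-fold either way, so a larger change of covered length lay outside those intervals. Covered length cannot exceed the window, so a rise could hardly show near full coverage, as in H2AX (91.1%) and APEX1 (90.3%). For such genes the interval cannot tell whether hybrids rose. After scaling, APEX1 in shTDP43 replicate 1 came to 5.36 kb, more than its window of 4.54 kb. H2AX in that library came to 3.83 kb, more than its window of 3.59 kb. ERCC2 came to 22.5 kb of its 22.7 kb window there, against 15.4 to 17.1 kb in the other untreated libraries. The widest interval reached 2.47 log2 units either side of its estimate (MRE11), and a change there was not detectable with these libraries.

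On the scaled lengths, every shTDP43 library lay below every shNC library in 1 repair gene (ATR), against 10.2% of all genes tested. Every shTDP43 library lay above every shNC library in 4 (XRCC6, RNF168, XRCC1 and POLB), against 8.14% of all genes. Without scaling the counts were 1 and 0 of the 34, against 14% and 0.796%.

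**Figure D2:**
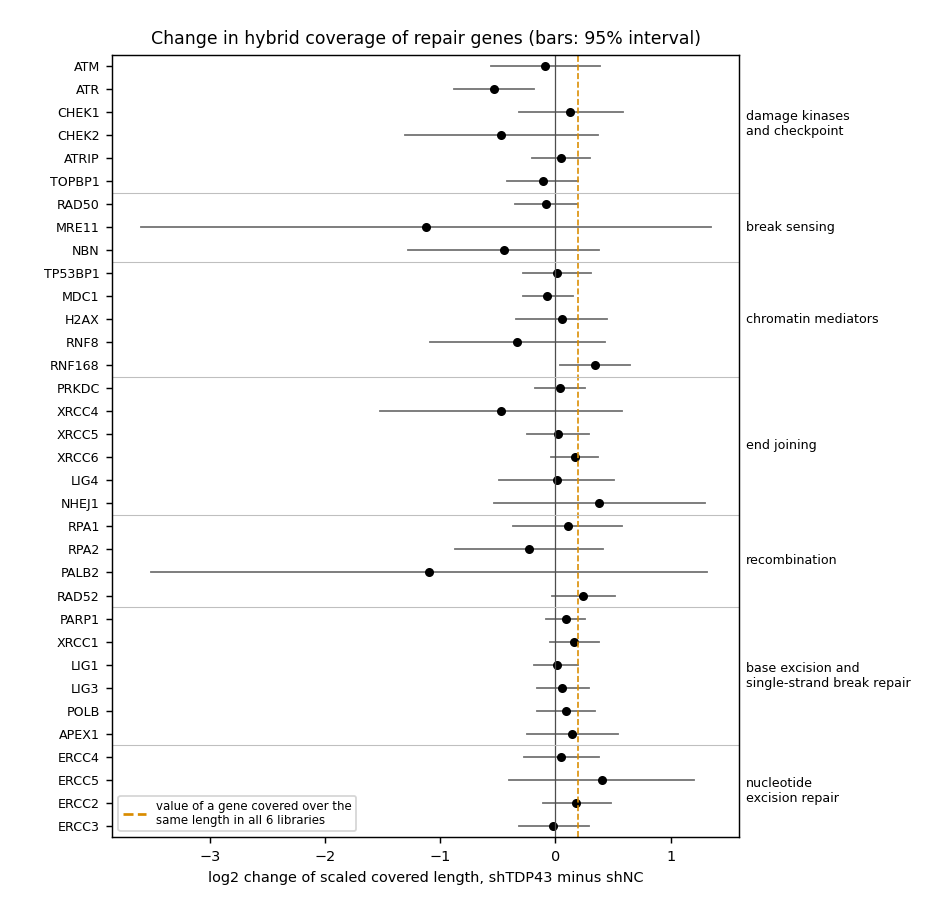
log2 change of scaled covered length, shTDP43 minus shNC, for the 34 repair genes grouped by role, with 95% intervals from limma (3 libraries against 3) and a dashed line at 0.20, the value of a gene covered over the same length in all 6 libraries. Most points lie near 0, the ATR interval runs from -0.88 to -0.19, and MRE11 and PALB2 have the widest intervals.

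Among the damage kinases and checkpoint genes, ATR had the smallest p of the 34. ATR (chromosome 3, 142449235 to 142578733, minus strand) encodes the kinase that responds to replication stress. It was covered over 2.69, 3.43 and 3.92 kb in shTDP43 libraries, against 5.44, 5.37 and 5.82 kb in shNC libraries. All 3 shTDP43 values lay below all 3 shNC values, and shTDP43 replicate 1 was the lowest of the 6. The log2 change was -0.53 ± 0.15 (SE, n = 3 each; limma adjusted p = 0.185), and leaving out shTDP43 replicate 1 gave -0.55 with an adjusted p of 0.108.

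ATR carried 6 separate covered regions, of which 2 were present in all 6 untreated libraries. The region across the 3′ end of the gene was covered over 2309, 2473 and 2473 bp in shTDP43 and over 2473 bp in each shNC library. A second, 34.16 to 35.95 kb from the 5′ end, was covered over 872, 1793 and 1793 bp in shTDP43 and 1793 bp in each shNC library. In both, shTDP43 replicate 1 alone was shorter and the other 5 libraries were identical to the base. The region 97.23 to 100.11 kb from the 5′ end was covered over 771, 0 and 489 bp in shTDP43, against 1200, 1629 and 2391 bp in shNC, with no overlap between the groups. The share of all regions with such a separation was not counted. Over the unscaled span, 14% of all genes tested separated in this direction. That share is of whole gene spans, so it cannot place a single region against the background. The other 3 regions were present in 1 shNC library each, and none of them exceeded 452 bp.

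**Figure D3:**
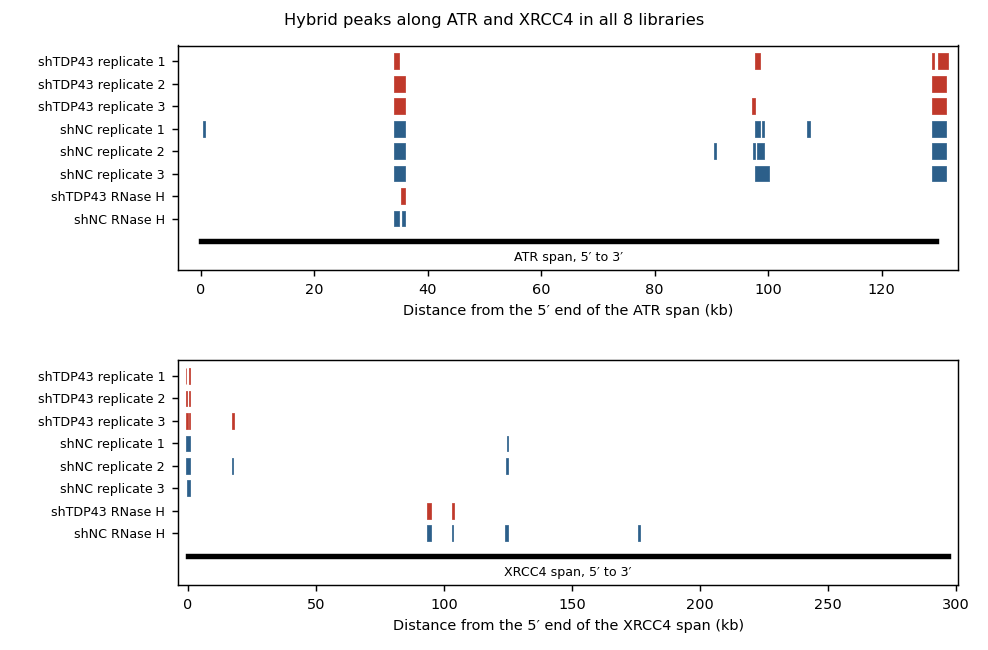
Peaks along ATR and XRCC4 in all 8 libraries, drawn against distance (kb) from the 5′ end of each span, with shTDP43 in red and shNC in blue. In ATR the regions near 34 and 129 kb recur in all 6 untreated libraries while that near 98 kb is short or missing in shTDP43; in XRCC4 the peaks of the RNase H libraries lie away from the untreated start peak.

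The kinase gene ATM was covered over 2.46% of its window and changed by -0.09 ± 0.20 (adjusted p = 0.841). Its start window, 2 kb either side of the listed starts, was covered over 2190 bp in all 6 untreated libraries. That region runs from -1.67 to 0.52 kb of the span start. The ATM window overlaps NPAT and C11orf65, and 58% of its bases lie in no other coding gene. The signal therefore cannot be assigned to ATM alone. CHEK1, the effector kinase below ATR, likewise had an equal 2627 bp covered at the start in all 6, and a change of 0.13 ± 0.20 over its span. CHEK2, the effector kinase below ATM, was covered over 1.33, 3.39 and 2.87 kb in shTDP43 and 6.96, 3.1 and 2.46 kb in shNC. shNC replicate 1 was the highest and shTDP43 replicate 1 the lowest, the other 4 values overlapped, and the change was -0.47 ± 0.36 (adjusted p = 0.634). It was -0.09 without shNC replicate 1, -0.24 without shTDP43 replicate 1 and -0.73 without shNC replicate 3. ATRIP, the partner that brings ATR to RPA, was covered over 42.3% of its window, mainly in its 3′ part, and 84.7% of the bases of that window lie in no other coding gene. Its main region runs from 12.68 to 23.71 kb from the start, past the end of the 20.9 kb span. The window also overlaps CCDC51, TREX1 and SHISA5, so the signal cannot be assigned to ATRIP alone. TOPBP1, which activates ATR, was covered over 9.78% and changed by -0.11 ± 0.13.

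The break-sensing genes were thinly covered. MRE11 (chromosome 11, 94415570 to 94512412, minus strand), the nuclease of the complex, had 0, 0.455 and 0.694 kb under peaks in shTDP43 and 1.59, 0.652 and 0.283 kb in shNC. The groups overlapped, none of its 5 regions occurred in more than 3 libraries, and the change was -1.12 ± 1.07 (adjusted p = 0.639). Without shTDP43 replicate 1 it was -0.22. NBN, the regulatory subunit, had 2 regions. One was present in all 6 libraries, and the other in all but shTDP43 replicate 1, where it was at 0 against 1782 to 2129 bp in the other 5. Its change of -0.45 ± 0.36 (adjusted p = 0.634) was -0.01 without that library. RAD50, the structural ATPase of the complex, was covered over 12.8% and changed by -0.08 ± 0.12.

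Among the chromatin mediators, the histone gene H2AX was the most covered of all 34. H2AX (chromosome 11, 119093874 to 119095465, minus strand) encodes the variant that is phosphorylated around breaks. It had 2.71, 3.31 and 3.34 kb of its 3.59 kb window under peaks in shTDP43 and 3.31, 3.48 and 3.48 kb in shNC. Apart from the lower shTDP43 replicate 1 the values lay close together, and the change was 0.06 ± 0.17 (adjusted p = 0.877). The peak belongs to a region of 12.1 kb that runs past the gene, so the signal cannot be assigned to H2AX alone.

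RNF168 (chromosome 3, 196468783 to 196503768, minus strand) encodes a ubiquitin ligase that marks H2A at breaks. It was covered over 6.46, 9.52 and 8.05 kb in shTDP43 and 8.47, 6.26 and 6.81 kb in shNC. The groups overlapped as measured, but not after scaling, with 9.11, 9.57 and 7.94 kb in shTDP43 and 7.7, 6.23 and 7.01 kb in shNC. The change was 0.34 ± 0.13 (adjusted p = 0.368). With untreated peaks left out wherever a treated peak of the same genotype overlapped, it was 1.39 with an adjusted p of 0.0145, because that step removes peaks at the 3′ end from shNC only. A region 9.07 to 11.25 kb from its 5′ end was covered over 731, 993 and 1237 bp in shTDP43 and over 0, 0 and 369 bp in shNC, and the region at its 3′ end over 4421 to 4772 bp in shTDP43 and 4648 to 5015 bp in shNC. MDC1, which binds phosphorylated H2AX, was covered over 69.5% (-0.07 ± 0.09), and its start window over 1115 bp in shTDP43 replicate 1 against 3544 to 4001 bp in the other 5 libraries. TP53BP1, a mediator that favours end joining, was spread over 30 regions of which 7 were present in all 6 libraries (0.01 ± 0.13). RNF8, the ligase upstream of RNF168, was covered over 5.07% (-0.33 ± 0.33).

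The end-joining genes were covered over 0.555% to 42.2% of their windows. XRCC4 (chromosome 5, 83077547 to 83374473, plus strand), the scaffold of the ligase complex, is the longest of the 34 and the least covered, at 0.555%. It had 0.734, 0.953 and 2.16 kb under peaks in shTDP43 and 2.01, 3.04 and 1.06 kb in shNC. Those groups overlapped, and the change was -0.47 ± 0.46 (adjusted p = 0.639). Its 1 region present in all 6 libraries lies at the start. XRCC6 (chromosome 22, 41621295 to 41664041, plus strand) encodes the Ku70 subunit that binds DNA ends. It was covered over 14.9, 20.1 and 21.4 kb in shTDP43 and 21.1, 17 and 18.9 kb in shNC. The groups overlapped before scaling and not after it, and the change was 0.17 ± 0.09 (adjusted p = 0.539), below the 0.20 of an equally covered gene. A single region of 7.85 kb across its start, which contains the printed promoter, was covered over 7587, 7847 and 7587 bp in shTDP43 and 7587, 7587 and 7251 bp in shNC.

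NHEJ1 (chromosome 2, 219069357 to 219160815, minus strand), which bridges the ends, had all of its coverage in 1 region at the start. That region was covered over 1.26 kb in each shTDP43 library, against 1.26, 1.51 and 0.662 kb in shNC. The change was 0.38 ± 0.40 (adjusted p = 0.656), and the shNC libraries lay on both sides of the shTDP43 value. XRCC5, the Ku80 gene, changed by 0.02 ± 0.12, PRKDC, the DNA-PK kinase gene, by 0.04 ± 0.10, and LIG4, the ligase gene, by 0.01 ± 0.22. Among 309 covered regions of the 34 genes, PRKDC held the only one present in all 3 shNC and no shTDP43 library (427, 424 and 319 bp in shNC), and 0 showed the opposite pattern. Over the 99429 regions of all untreated peaks, 1.27% and 0.258% showed these patterns, so 1 and 0 of 309 are near the background.

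Of the recombination genes, RAD52 had the third smallest p of the 34. RAD52 (chromosome 12, 911736 to 991122, minus strand) encodes a protein that anneals complementary strands. It was covered over 8.04, 14.1 and 13.5 kb in shTDP43 and 11.8, 10.3 and 11.3 kb in shNC. shTDP43 replicate 1 was the lowest of the 6 and the other shTDP43 libraries the highest, and the change was 0.24 ± 0.12 (adjusted p = 0.487). Leaving out shTDP43 replicate 1 gave 0.34 with an adjusted p of 0.142. A region 3.63 to 6.65 kb from the 5′ end was covered over 360, 3016 and 2318 bp in shTDP43 and 1397, 871 and 1324 bp in shNC, while the region over the printed start was 3096 bp in all 6. The RPA genes, which coat single-stranded DNA, changed by 0.11 ± 0.21 (RPA1) and -0.23 ± 0.28 (RPA2). Neither direction held with each library left out: RPA2 was 0.12 without shTDP43 replicate 1, and RPA1 -0.06 without shTDP43 replicate 2. PALB2, which brings recombinase loaders to breaks, changed by -1.10 ± 1.05, and by 0.12 without shTDP43 replicate 1.

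The base excision and single-strand break repair genes were covered over 20% to 90.3% of their windows. All 6 had a positive change between 0.01 and 0.16, none of which passed the test, and all lay below 0.20. APEX1 (chromosome 14, 20455226 to 20457767, plus strand), the abasic site endonuclease, was covered over 3.8, 3.77 and 4.54 kb of its 4.54 kb window in shTDP43 and 4.23, 4.25 and 4 kb in shNC. The groups overlapped, with shTDP43 replicate 3 the highest, and the change was 0.14 ± 0.17 (adjusted p = 0.686). The APEX1 window also overlaps OSGEP and PIP4P1, and 63.1% of its bases lie in no other coding gene. Its signal therefore cannot be assigned to APEX1 alone. XRCC1 (chromosome 19, 43543311 to 43575527, minus strand), the scaffold of single-strand break repair, was covered over 12.5, 16.8 and 15.3 kb in shTDP43 and 16.2, 14.8 and 14.3 kb in shNC. After scaling these were 17.7, 16.9 and 15.1 kb in shTDP43 and 14.8, 14.7 and 14.8 kb in shNC, and the change was 0.16 ± 0.09 (adjusted p = 0.568). Its start window of 4001 bp was covered entirely in all 6 libraries, so a rise there could not show. PARP1, the break sensor that makes poly(ADP-ribose), changed by 0.09 ± 0.08, the ligase genes LIG1 and LIG3 by 0.01 ± 0.08 and 0.06 ± 0.10, and POLB, the gap-filling polymerase gene, by 0.09 ± 0.11.

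Among the nucleotide excision repair genes, ERCC2 combined a bare start with a covered body. ERCC2 (chromosome 19, 45349837 to 45370573, minus strand), a helicase subunit of TFIIH, was covered over 15.9, 16.8 and 17 kb in shTDP43 and 17, 16.6 and 16.6 kb in shNC. shTDP43 replicate 1 was the lowest by a small margin, the other 5 overlapped, and the change was 0.18 ± 0.13 (adjusted p = 0.634). All of it was 1 region, from 4.42 kb inside the gene to 25.72 kb from its start, past its 3′ end, and the 4 kb around the start held no peak in any of the 8 libraries. ERCC4, the XPF nuclease gene, had a start region of 3306 bp in all 6 libraries and an inner one of 1124 bp in all but shTDP43 replicate 1 (0.05 ± 0.14). ERCC5, the XPG nuclease gene, changed by 0.40 ± 0.35, but 3.13% of its window is free of the readthrough gene BIVM-ERCC5. ERCC3, the other TFIIH helicase gene, changed by -0.02 ± 0.13.

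Along the genes, the middle of the span had the lowest mean coverage in both genotypes. In the 29 genes with a known strand the span was divided into 3 equal stretches, and the first, middle and last were covered over 26% ± 4.04, 21.6% ± 2.99 and 32.7% ± 5.08 in shTDP43 and over 28.1% ± 2.12, 22.5% ± 0.624 and 35.2% ± 2.9 in shNC (mean over genes, SD over 3 libraries). Over all 10481 tested genes with a strand the values were 33.8%, 30.4% and 36% in shTDP43 and 37.2%, 32.8% and 38.6% in shNC. The first twentieth of the span was covered over 34.6%, 49.5% and 48.3% in shTDP43 libraries and 50.5%, 48.3% and 39.5% in shNC libraries, which overlapped. At the start, 25 of the 29 genes could be tested and 0 changed (limma, adjusted p under 0.05; 0.0111% of all genes), nor did any have an unadjusted p under 0.05 (5.71% of all genes). The other 4 (ATR, MRE11, RNF8 and ERCC2) averaged under 500 bp there. At the end, 15 could be tested and 0 changed (0.0163% of all genes), with 0 at an unadjusted p under 0.05 (6.05% of all genes). Adjusted p-values of limma were at least 0.615 at the start and 0.532 at the end. The XRCC1 promoter was covered over all 300 bases in all 6 untreated libraries and the H2AX promoter had a peak in all 6, while the APEX1 promoter had one in 5 and none in shNC replicate 3. In both genotypes ATRIP, ERCC2 and RNF168 were covered mainly towards their 3′ ends.

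**Figure D4:**
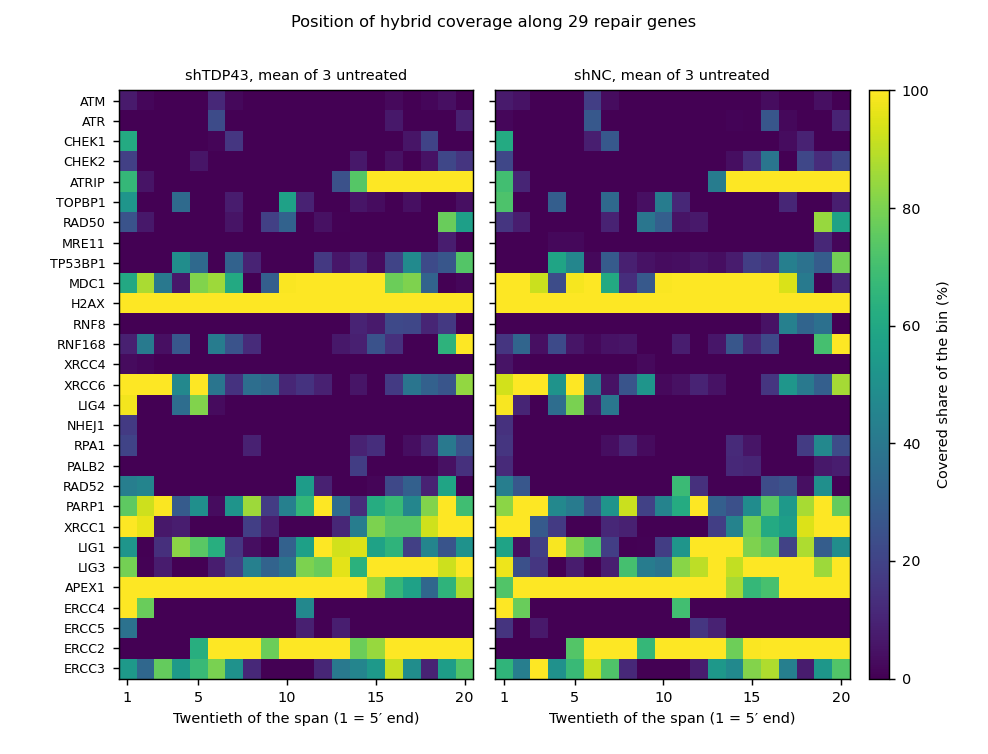
Covered share (%) of each twentieth of the span, from the 5′ end on the left to the 3′ end on the right, averaged over the 3 untreated libraries of shTDP43 (left) and shNC (right), for the 29 repair genes with a listed strand. In both panels ERCC2 is dark at its start and bright through its body, and H2AX is bright throughout.

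Of the 309 covered regions in the 34 genes, 95 (30.7%) were present in all 6 untreated libraries, against 24.2% of all regions, and they held 75% of the regions' length. Another 112 (36.2%) were called in 1 library only, against 38.7% of all regions. By the authors' -log10 p, the strongest peak touching the 34 windows lay at H2AX in shTDP43 replicate 1 and shNC replicates 2 and 3. In the other 3 untreated libraries it lay at MDC1. The best H2AX peak ranked within the top 0.897% to 2.06% of its own list. The best RAD52 peak ranked within the top 1.7% to 2.28% of its own list in all 6 untreated libraries, and the best ATRIP peak within the top 1.32% to 2.17%. The best MDC1 peak was within the top 0.126% to 0.207% in shTDP43 replicates 2 and 3 and in shNC replicate 1, but at 15.1% in shTDP43 replicate 1 and at 7.16% and 8.74% in the other shNC libraries. The widest peak at MDC1 was 14 and 13.2 kb in shTDP43 replicates 2 and 3 and 17.1 kb in shNC replicate 1. It was 5.32 kb in shTDP43 replicate 1 and 8.24 and 6.83 kb in shNC replicates 2 and 3. A region of 17.1 kb across the MDC1 start reaches only 2.79 kb into the gene, so peaks there cannot be assigned to MDC1 alone. These ranks are the authors' values within lists of different length.

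Little of the covered length of these genes was left after RNase H, and with 1 treated library per genotype there is no test. The 34 genes had 7.59 kb under peaks in the treated shTDP43 library, against 336.2 ± 74.8 kb untreated (SD, n = 3), which is 2.26%. In shNC they had 14.7 kb after treatment, against 369.3 ± 31.5 kb untreated, which is 3.97%. Of the treated length, 4.71 kb in shTDP43 and 10.4 kb in shNC lay under untreated peaks of the same genotype. Over all genomic peaks the treated length was 4.84% of the untreated length in shTDP43 and 7.94% in shNC. The lowest solved background pileup was 0.991 in the treated shTDP43 library and 0.936 in the treated shNC library. In untreated libraries it was 1.05 to 1.94 in shTDP43 and 1.62 to 2.01 in shNC. The part of this difference in the shorter treated length was not tested. A treated peak was present in 8 of 34 genes in shTDP43 and in 13 of 34 in shNC, against 23% and 35.9% of all tested genes. A treated peak was present in both genotypes in 6 genes (ATR, XRCC4, XRCC5, PARP1, ERCC4 and ERCC3) and in neither in 19, among them H2AX, APEX1, ERCC2 and MDC1, which were the most covered before treatment.

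**Figure D5:**
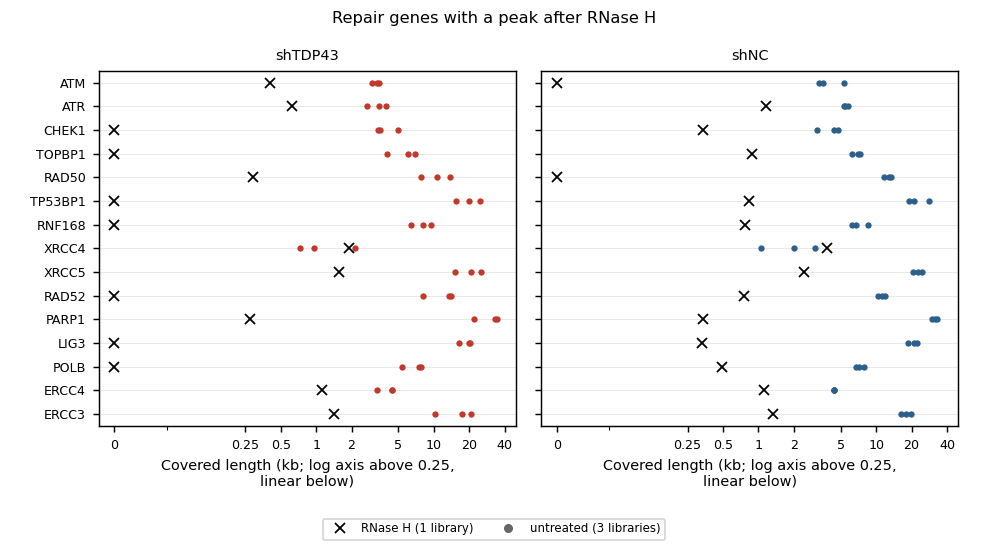
Covered length (kb, log axis above 0.25 kb and linear below) of the 15 repair genes with a peak after RNase H in at least 1 genotype, as a cross for the RNase H library and dots for the 3 untreated libraries of shTDP43 (left) and shNC (right). Crosses lie left of the dots except in XRCC4, where they reach 1.92 kb in shTDP43 and 3.86 kb in shNC.

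After RNase H XRCC4 had 1.92 kb under peaks in shTDP43, within the untreated range of 0.734 to 2.16 kb, and 3.86 kb in shNC, above all 3 untreated shNC values. None of the treated shTDP43 length and 0.896 kb of the treated shNC length lay where the same genotype had an untreated peak. Both treated libraries shared a peak of 1.36 kb whose summit lay 94.58 to 94.59 kb inside the gene, at chr5:83170914-83172275, with an authors' fold enrichment of 18.2 in shTDP43 and 17.7 in shNC. That peak was within the top 2.74% of the treated shTDP43 list and 3.17% of the treated shNC list. XRCC5 had 1.55 kb in shTDP43 and 2.44 kb in shNC after RNase H, spread over 4 peaks in each, of which 1.07 kb in shTDP43 and 1.73 kb in shNC lay under untreated peaks of the same genotype. Its untreated values were 15.1, 20.7 and 25.3 kb in shTDP43 and 22.7, 20.5 and 24.7 kb in shNC. ERCC3 had 1.41 kb in shTDP43 and 1.33 kb in shNC after RNase H, all under untreated peaks, against untreated values of 10.3, 17.4 and 20.7 kb in shTDP43 and 19.7, 16.3 and 17.9 kb in shNC. The inner ERCC4 region of 1124 bp was called over the same bases after RNase H in both genotypes. In ATR, the treated peaks of 0.628 kb in shTDP43 and 1.16 kb in shNC lay in the region 34.16 to 35.95 kb from its 5′ end. Of the treated peaks in the 34 genes, 10 of 13 in shTDP43 and 19 of 24 in shNC overlapped an untreated peak, against 49.1% and 52.6% of all treated peaks.

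A wider list of 86 further genes of the same pathways gave 80 that could be tested, of which 0 rose and 1 fell in shTDP43 cells, and 6 had an unadjusted p under 0.05 (0.921% and 11.5% of all genes). Their median log2 change was 0.06, with 46 positive and 34 negative, close to the 0.05 of all genes. The gene that fell was NEIL2, a DNA glycosylase of base excision repair on chromosome 8. It was covered over 0.301, 0.381 and 0.416 kb in shTDP43 and 3.57, 3.5 and 2.87 kb in shNC, with a log2 change of -2.72 ± 0.33 (limma, adjusted p = 0.0105). Its coverage in shNC lay in a region across one end of the gene, with 565, 989 and 346 bp in shTDP43 and 3191, 3735 and 2722 bp in shNC including bases beyond the window, and in a second region just inside it. The call held in 13 of 20 other settings. It was lost without any one of the shNC libraries (adjusted p = 0.105 to 0.153), over the span alone (0.101), with a replicate block (0.0537) and with peaks of -log10 q of at least 5 (0.114) or 10 (0.72). By list, none of 13 checkpoint genes, 12 Fanconi and crosslink genes, 15 homologous recombination genes and 15 end-joining and chromatin genes passed, and 1 of 25 excision repair genes did.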

How the data were processed

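DRIP-seq peak lists of 8 SH-SY5Y libraries were used, called per library by the authors; the input library was not analysed here. The build hg38 and the tools Bowtie2 2.4.4, MACS2 2.2.6 and SAMtools appear in the submitters' processing notes, which give no role to each. Read depth, caller settings and the control for calling were not given in the sources used here. The lists hold, for every deposited peak, a fold enrichment ratio at its summit, -log10 p and q values, a score (10 times the -log10 q) and a summit position. No deposited peak has a -log10 q under 1.3, and read counts are not part of the lists.

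Covered bases were counted per gene (RefSeq, GRCh38.p14; span plus 1000 bp either side) and divided by each library's total on chromosomes 1 to 22 and X relative to the median total. limma 3.58.1 (R 4.3.3; lmFit, eBayes with trend) was fitted to log2(scaled bp + 100) over the 12810 genes that averaged 500 bp or more, 3 shTDP43 against 3 shNC untreated libraries, genotype only, with Benjamini-Hochberg adjustment over all of them. Fold changes on this scale are understated for short covered lengths. Starts and strands came from the RefSeq promoter table; start and end windows reach 2000 bp either side. Members, gene lists and tests were chosen with earlier results of these data known. Values per library were given for the 6 members with the smallest p, the 3 most and 3 least covered, the 3 with most treated coverage, and any called gene; ATM, CHEK1, CHEK2, NBN, MDC1, PRKDC and ERCC4 values by library were added after their values were seen. Other settings were no or median-ratio scaling, other pseudocounts, filters, q limits, windows and peak numbers, a replicate block, and leaving out each library. Scripts (Python 3.11.15, NumPy 2.4.6, pandas 2.3.3) were tested on simulated data, and 300 windows recounted base by base differed in 0 cases.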

Additional observations from a re-analysis of the deposited data

How the results depend on the processing

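In 698 refits of the 34 genes over 21 settings, 1 passed: RNF168, without peaks also called after RNase H (1.39, adjusted p = 0.0145; 1 member called). That setting removes other peaks in each genotype by construction and called 1739 of all genes. ATR stayed between -0.76 and -0.38 (adjusted p 0.108 to 0.72), and of the 34 genes 8 kept their sign in every setting. All-gene calls over the span, 118 as reported, were 20 with no scaling, 231 with a pseudocount of 1000 bp, 33 and 32 with -log10 q of at least 5 and 10, 179 with an equal number of peaks, 75 without the variance trend and 74 with a replicate block, and the cause was not tested. Leaving out 1 library gave 18 to 223 calls: 223 without shTDP43 replicate 1, and 18, 32 and 27 without shNC replicates 1, 2 and 3. Deviations of same-numbered libraries had correlations of -0.171, 0.062 and -0.172, and the replicate block called 0 of the 34 genes. With 3 libraries per group these correlations cannot show whether the replicate numbers pair the samples. The members' median was -0.17 with no scaling and -0.11 without peaks also called after RNase H. Members with a treated peak, 8 in shTDP43 and 13 in shNC, were 5 and 9 with at least 500 bp and 4 and 8 with -log10 q of at least 5. Start calls over all genes ranged from 0 to 36 and end calls from 0 to 95, with 0 members. Intervals are wide for sparsely covered genes, and peak lists hold no signal below the caller's limit.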

Other observations

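Many peak boundaries in the repair genes fell on the same base in several libraries. Of 2762 boundaries in the 34 windows, 38.5% were shared to the base by at least 2 untreated libraries and 10.4% by all 6, against 33.3% and 9.48% over all peaks. ATM, CHEK1 and ERCC4 had start windows covered over identical lengths in all 6. The XRCC1 start window was also equal in all 6, but it was covered in full (4001 bp) and so held no boundary. Within the 300-base promoter sequences of all protein-coding genes, 33%, 44.1% and 44% of peak boundaries in shTDP43 and 45.9%, 46.3% and 40.1% in shNC lay within 10 bp of a site of the 5 restriction enzymes, against 1.58% of all promoter positions. After RNase H the shares were 20% in shTDP43 and 11.5% in shNC. shTDP43 replicate 1 was the lowest of the untreated libraries.

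Of the genes outside the 34, FANCA, a core Fanconi subunit gene, was covered over 16, 21.2 and 17.9 kb in shTDP43 and 16.9, 12.6 and 11.9 kb in shNC (0.61 ± 0.13, limma adjusted p = 0.0894). RPA3, the small RPA subunit gene, was covered over 3, 4.53 and 2.95 kb in shTDP43 and 8.57, 7.62 and 5.87 kb in shNC. Its groups did not overlap (-0.87 ± 0.20, limma adjusted p = 0.114).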
